A study of Mus musculus with 6 samples.

Results

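Genes that move chloride, bicarbonate and sodium across the intestinal epithelium were followed in the mucosa of alk-SMase KO and WT mice. They were chosen by name, for their role in transport and not for their values, and all 8 of 8 were found among the 12395 genes that could be placed on a row of the deposited table of 22700 rows. Alk-SMase, the product of Enpp7 on chromosome 11, is an enzyme of the enterocyte brush border that splits sphingomyelin into ceramide. The KO mice had lost exon 2 of this gene through Cre-loxP recombination, which shifts the reading frame, and both genotypes were C57BL/6 mice. The Cre driver, age and sex are not given in the sources used here, and no treatment is named. RNA-seq was made from mucosa of the middle small intestine, with 1 library from each of 3 KO mice (K79S, K82S, K86S) and from each of 3 WT mice (W83S, W89S, W90S), and values for single mice are listed in this order.

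Fluid secretion starts in the crypts. NKCC1 (Slc12a2) brings chloride into the cell across the basolateral membrane, potassium leaves again through basolateral channels such as KCNQ1 (Kcnq1), and chloride and bicarbonate leave through the apical channel CFTR (Cftr). NBCe1 (Slc4a4) carries bicarbonate in with sodium at the basolateral side. Absorption takes place mainly on the villi, where the apical exchanger NHE3 (Slc9a3) takes up sodium for protons and DRA (Slc26a3) and PAT1 (Slc26a6) take up chloride for bicarbonate. All of these depend on the sodium gradient of the Na+/K+-ATPase, whose beta subunit is encoded by Atp1b1.

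Values are FPKM, read density corrected for transcript length and library size, as deposited. Differences are log2 fold changes, KO minus WT, computed from log2(FPKM + 1), so that changes at low levels are understated. They were tested with limma over all 13089 rows that reached 1 FPKM in at least 2 libraries, and a gene was called at an adjusted p-value under 0.05 together with a fold change past 1.5. By this rule 1 row in the whole table was called (0.00764%), while 1638 rows had an unadjusted p-value under 0.05. The study describes the mice as matched, but the labels do not say which KO and WT mice belong together, so every test was unpaired.

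Several libraries stood apart. Enpp7 had 605, 129 and 669.7 FPKM in KO mice and 406, 667 and 495 FPKM in WT mice, and such a value, taken over all exons, is no measure of a single missing exon. W83S held gastric and pancreatic transcripts. The 3 of 6 parietal cell markers that could be placed summed to 1314 FPKM in W83S and to at most 0.813 FPKM elsewhere. The 5 of 8 markers of gastric surface mucous and chief cells summed to 39710 FPKM against at most 5.72 FPKM. The 3 of 10 pancreatic acinar markers summed to 10220 FPKM against at most 80.5 FPKM. This acinar sum was nearly all Clps (10194 FPKM), with 20.1 FPKM for Amy2a5 and 2.11 FPKM for Ctrb1 in W83S. Clps was also present in every other library, while Amy2a5 reached at most 0.0297 FPKM and Ctrb1 at most 0.971 FPKM elsewhere. K79S was the only library that nearly lacked the Y-linked transcripts Ddx3y (0.0279 FPKM, at least 2.93 FPKM elsewhere) and Eif2s3y (listed at 0, at least 5.69 FPKM elsewhere). Intestinal epithelium markers were high in every library, the 7 genes summing to between 5763 and 8668 FPKM, with overlap between the genotypes.

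None of the 8 transport genes was called. Kcnq1 lay lower in all KO libraries than in all WT libraries, Slc12a2 did so except for K82S, and Slc4a4 lay higher in all KO libraries by a small margin. The other 5 genes, which include CFTR and all 3 apical exchangers, overlapped between the genotypes. Of the 8, 4 had a log2 fold change below 0 and 4 above, and the median was -0.098, beside -0.061 over all rows tested.

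**Figure D1:**
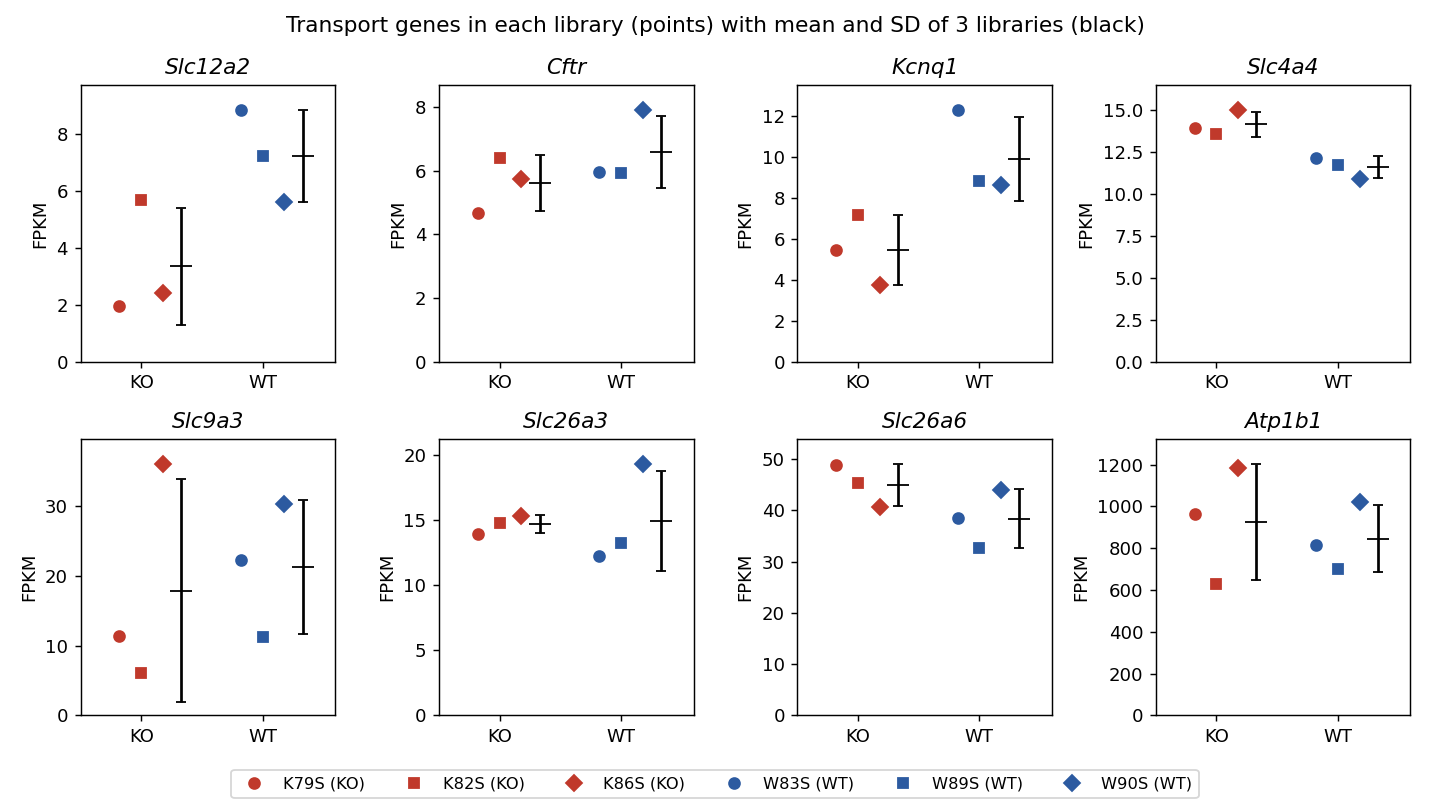
FPKM of the 8 transport genes (vertical axes start at 0) in each KO and WT library, 1 point per mouse, with the mean and SD of each genotype in black. Kcnq1 and Slc4a4 are the genes whose KO and WT points do not overlap, and Slc9a3 shows the widest spread within a genotype.

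Slc12a2, the basolateral chloride loader (ENSMUSG00000024597.10, chromosome 18, 57878678 to 57946821, plus strand, mm10, GENCODE M21 as for all positions of genes), had 1.95, 5.71 and 2.40 FPKM in KO mice and 8.86, 7.23 and 5.63 FPKM in WT mice. K79S and K86S thus lay below all WT libraries, while K82S lay just above W90S. In the check of gene labels given with the processing, the row of Slc12a2 itself did not match, while 97.3% of its window did. Mean levels were 3.36 ± 2.05 FPKM (± SD, n = 3) for KO and 7.24 ± 1.61 FPKM for WT, so WT was 2.16 times KO. The log2 fold change of -1.0 (SE 0.33, 95% interval from -1.79 to -0.21) was not called (adjusted p = 0.393 from limma, exact permutation test over libraries, p = 0.2). Without K82S, the KO library that overlapped WT, Slc12a2 was called, with a log2 fold change of -1.36 (adjusted p = 0.0319 from limma). In this setting 8.88% of all rows were called and lower in KO. Slc12a2 was not called without K79S (-0.77, adjusted p = 0.76 from limma) or without K86S (-0.87, adjusted p = 0.568 from limma).

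Kcnq1, a pore-forming potassium channel subunit (ENSMUSG00000009545.14, chromosome 7, 143106362 to 143427042, plus strand), had 5.45, 7.17 and 3.76 FPKM in KO mice. In WT mice it had 12.3, 8.84 and 8.65 FPKM, so all KO values were below all WT values, as they were in 11.3% of all rows tested. Mean levels were 5.46 ± 1.70 FPKM (± SD, n = 3) for KO and 9.93 ± 2.06 FPKM for WT, so WT was 1.82 times KO. The log2 fold change was -0.78 with a 95% interval from -1.34 to -0.21 (SE 0.24, adjusted p = 0.393 from limma, exact permutation test, p = 0.1, the smallest that 3 libraries against 3 can give). Without K82S the log2 fold change was -0.96 (adjusted p = 0.0512 from limma), which again was not called. KCNQ1 is also the potassium channel of gastric parietal cells, and W83S, the library with parietal markers, had the highest value. Without W83S its log2 fold change was -0.63 (adjusted p = 0.542 from limma), and the remaining libraries still did not overlap. W83S was also highest in Slc12a2, whose log2 fold change without it was -0.86 (adjusted p = 0.542 from limma). The antisense gene Kcnq1ot1 overlaps 93092 bp of Kcnq1, and as the handling of strand is not stated, reads of the pair cannot be told apart.

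The crypt markers also had lower sums in KO. The 5 of 8 that could be placed (Olfm4, Mki67, Top2a, Smoc2 and Cdk1) summed to 9.58, 35.8 and 19.0 FPKM in KO mice and to 37.2, 64.6 and 86.8 FPKM in WT mice, so the sums of all KO libraries lay below those of all WT libraries. Of the 5 genes, 2 lay lower in every KO library than in every WT library, namely the stem cell gene Olfm4 (3.98, 20.1 and 12.8 against 24.8, 45.6 and 61.3 FPKM) and Smoc2 (1.58, 2.98 and 2.16 against 3.70, 5.26 and 7.98 FPKM), of which Smoc2 was named after its values were seen. The same held for 11.3% of all rows tested. Mki67, a gene of dividing cells, had 1.53, 5.24 and 1.66 FPKM in KO and 3.82, 5.40 and 7.12 FPKM in WT, with K82S within the WT range. The part of the crypt share in the values of Slc12a2 and Kcnq1 was not tested, and in bulk RNA fewer cells of a type and less RNA per cell cannot be told apart.

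Kcnn4, the calcium-activated basolateral potassium channel that also serves chloride secretion, was the partner gene nearest in pattern to both Slc12a2 and Kcnq1. It had 1.5, 2.4 and 1.49 FPKM in KO mice against 3.55, 4.49 and 3.57 FPKM in WT mice. All KO values thus lay below all WT values, as in 11.3% of all rows tested. The log2 fold change was -0.81 (SE 0.17, adjusted p = 0.393 from limma). Without K82S it was -0.96 and Kcnn4 was called (adjusted p = 0.0319 from limma), where 8.88% of all rows were called and lower in KO. Kcnn4 was not called without K79S (-0.74, adjusted p = 0.76 from limma) or without W83S (-0.86, adjusted p = 0.542 from limma). Kcne3, the subunit that holds intestinal KCNQ1 open, had 3.11, 7.69 and 4.06 FPKM in KO and 5.38, 13.2 and 6.94 FPKM in WT, so that K82S lay above W83S and W90S. Its log2 fold change was -0.66 (SE 0.38, adjusted p = 0.470 from limma).

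**Figure D2:**
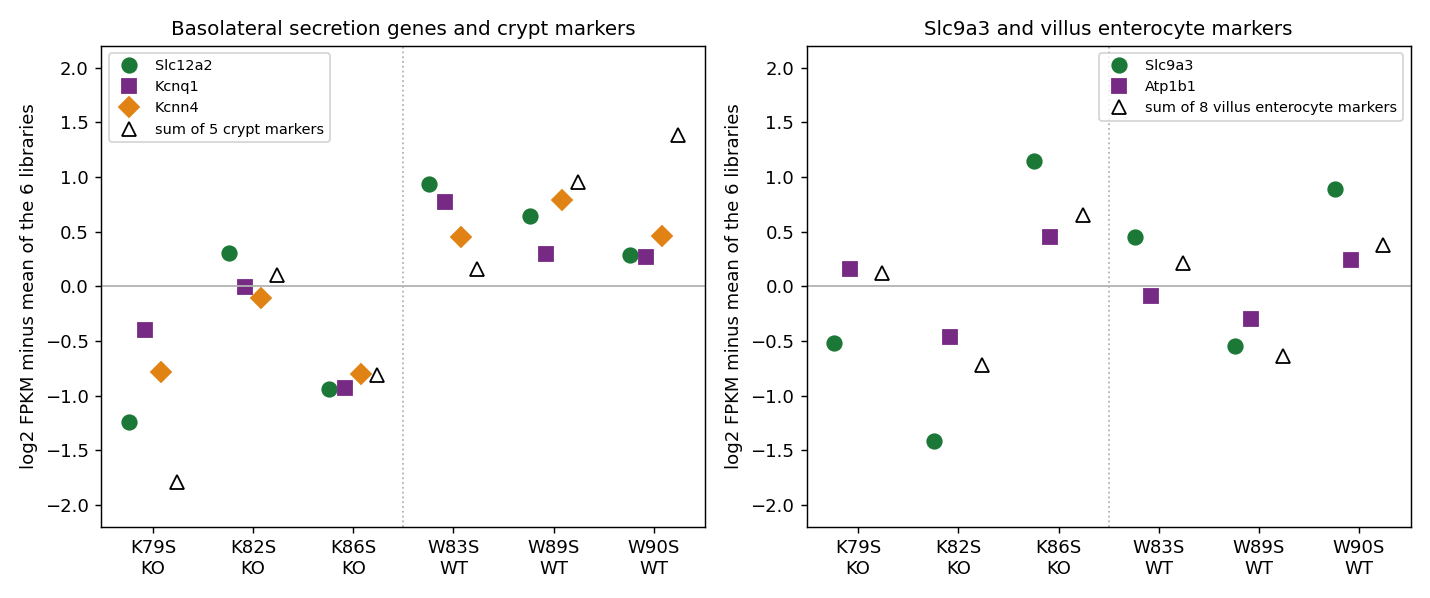
log2 FPKM minus the mean over the 6 libraries (vertical axis) for each library (horizontal axis), 1 marker per gene or marker sum. On the left Slc12a2, Kcnq1, Kcnn4 and the sum of 5 crypt markers are low in K79S and K86S; on the right Slc9a3, Atp1b1 and the sum of 8 villus enterocyte markers are low in K82S and W89S and high in K86S and W90S.

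Cftr, the apical chloride and bicarbonate channel (ENSMUSG00000041301.15, chromosome 6, 18170687 to 18322768, plus strand), had 4.67, 6.41 and 5.74 FPKM in KO mice and 5.97, 5.91 and 7.90 FPKM in WT mice. The extremes were K79S and W90S, and the other libraries of both genotypes were interleaved. Mean levels were 5.61 ± 0.88 FPKM (± SD, n = 3) for KO and 6.59 ± 1.13 FPKM for WT, and the log2 fold change was -0.20 with a 95% interval from -0.60 to 0.20 (adjusted p = 0.625 from limma). The interval reaches just past a fold change of 1.5 on the lower side. Pancreatic ducts also use this channel, and W83S, the library highest in the acinar marker sum, which was nearly all Clps, lay within the range of the others. The antisense gene Gm15592 overlaps 18913 bp of Cftr, and reads of the pair cannot be told apart.

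Within a library the ratio of 2 genes does not depend on the scaling of that library, and 6 such ratios were compared. The ratio of Cftr to Slc12a2 was 2.39, 1.12 and 2.39 in KO mice and 0.674, 0.818 and 1.40 in WT mice. It was higher in K79S and K86S than in every WT library, whereas K82S lay between W89S and W90S. The difference in log2 ratio was 1.02 (exact two-sided permutation test, p = 0.2, adjusted p = 0.8 over the 6 ratios). The ratio of Kcnq1 to Slc12a2 ranged from 1.26 to 2.79 in KO and from 1.22 to 1.54 in WT (difference in log2 ratio 0.36, exact permutation p = 0.4, adjusted p = 0.8). The smallest p an exact permutation test of 3 against 3 can give is 0.1.

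Slc4a4, which carries sodium and bicarbonate across the basolateral membrane (ENSMUSG00000060961.14, chromosome 5, 88886818 to 89239653, plus strand), was the steadiest of the 8. It had 13.9, 13.5 and 15.0 FPKM in KO mice and 12.2, 11.7 and 10.9 FPKM in WT mice. Every KO mouse had more than any WT mouse, as in 5.9% of all rows tested, but the distance was small, with means of 14.1 ± 0.75 FPKM (± SD, n = 3) for KO and 11.6 ± 0.64 FPKM for WT. The difference on the log2 scale was 0.27 with a 95% interval from -0.032 to 0.56 (SE 0.12, adjusted p = 0.405 from limma, exact permutation test, p = 0.1). Scaled to the epithelium markers, the log2 fold change of Slc4a4 was 0.038. It was 0.44 with libraries scaled to equal summed FPKM and 0.35 with libraries centred on their medians.

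The apical exchangers showed no common direction. NHE3 and DRA work side by side in electroneutral uptake of sodium chloride, and their promoters are shown because they stand for the coupled pair. The sequences are the 250 bases upstream of the RefSeq start (GRCm38.p6, plus strand, 5′ to 3′), at chr13:74121163-74121412 for Slc9a3 and chr12:31437969-31438218 for Slc26a3, and capitals mark a match on either strand to GGGCGG, the GC box, to TATAAA, to CCAAT or to AGATAA, which GATA factors bind. No match in these windows overlaps a match to another of the motifs. The Slc26a3 start used by RefSeq lies inside the span of the gene in GENCODE.
Slc9a3: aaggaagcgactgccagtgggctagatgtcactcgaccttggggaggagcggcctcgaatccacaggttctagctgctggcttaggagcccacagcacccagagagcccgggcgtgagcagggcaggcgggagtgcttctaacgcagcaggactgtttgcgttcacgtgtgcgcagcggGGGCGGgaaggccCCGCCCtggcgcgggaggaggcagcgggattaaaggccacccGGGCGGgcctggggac
Slc26a3: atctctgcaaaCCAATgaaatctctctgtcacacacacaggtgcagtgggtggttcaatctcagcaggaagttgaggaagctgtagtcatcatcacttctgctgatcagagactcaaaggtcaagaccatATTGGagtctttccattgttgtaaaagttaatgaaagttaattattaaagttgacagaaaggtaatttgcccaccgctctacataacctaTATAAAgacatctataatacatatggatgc

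The Slc9a3 window held 3 matches to GGGCGG and none to the other motifs, and 67.6% of its bases were G or C. The Slc26a3 window held 1 match to TATAAA and 2 to CCAAT, none to GGGCGG, and 38.8% of its bases were G or C. Of 32536 promoter windows of this length, 33.0% held GGGCGG, 12.3% TATAAA, 33.8% CCAAT and 9.97% AGATAA on either strand. The matches describe these letters and were not tied to any value. RefSeq windows were read for 6 of the 8 genes, and none was read for Slc12a2 and Kcnq1.

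Slc9a3, the main sodium-proton exchanger of the small intestinal brush border (ENSMUSG00000036123.8, chromosome 13, 74121457 to 74169442, plus strand), had the widest range of the 8, 5.90-fold from the lowest to the highest library. It had 11.4, 6.13 and 36.1 FPKM in KO mice and 22.3, 11.2 and 30.3 FPKM in WT mice. The highest and the lowest value were both from KO mice, so the groups overlapped completely. Mean levels were 17.9 ± 16.0 FPKM (± SD, n = 3) for KO and 21.3 ± 9.59 FPKM for WT. The log2 fold change of -0.48 had a 95% interval from -2.01 to 1.05 (adjusted p = 0.768 from limma), so its direction could not be told at this spread. Without K82S the value was 0.049.

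The 6 libraries stood in the same order for Slc9a3 as for the sum of 8 villus enterocyte markers, which was 13600, 7611 and 19630 FPKM in KO mice and 14510, 8049 and 16250 FPKM in WT mice. Markers of the proximal small intestine, 6 of 7 placed, summed to 2069, 1065 and 4297 FPKM in KO and 4138, 1446 and 5736 FPKM in WT, again lowest in K82S and W89S. The villus sum was led by Apoa4 (2820 to 10434 FPKM) and Fabp1 (972 to 5415 FPKM), and Apoa4 alone had the same order of libraries. Other villus markers differed, with Anpep highest in K79S and Ada lowest in W90S, both named after their values were seen. Fabp1, a fatty acid binding protein, is in both lists. The part of the villus share or of the site of sampling in the values of Slc9a3 was not tested. Aadac, an arylacetamide deacetylase, was the tested gene nearest to Slc9a3 in pattern, with 19.4, 8.65 and 49.4 FPKM in KO mice and 40.5, 18.4 and 49.6 FPKM in WT mice.

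Slc26a3, the chloride-bicarbonate exchanger known for its loss in congenital chloride diarrhoea (ENSMUSG00000001225.12, chromosome 12, 31390871 to 31473917, plus strand), had 14.0, 14.8 and 15.3 FPKM in KO mice. In WT mice it had 12.2, 13.2 and 19.3 FPKM, so the KO values lay within the WT range. Mean levels were 14.7 ± 0.69 FPKM (± SD, n = 3) for KO and 14.9 ± 3.85 FPKM for WT. On the log2 scale the difference was 0.0028 with a 95% interval from -0.46 to 0.46 (adjusted p = 0.996 from limma), which lies inside a fold change of 1.5 in both directions.

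Slc26a6, which exchanges chloride for bicarbonate or oxalate (ENSMUSG00000023259.16, chromosome 9, 108853283 to 108913049, plus strand), was the most abundant exchanger. It had 48.9, 45.3 and 40.7 FPKM in KO mice and 38.5, 32.6 and 44.1 FPKM in WT mice. W90S lay above K86S, and otherwise the KO values were the higher ones. The log2 fold change was 0.23 with a 95% interval from -0.18 to 0.64 (adjusted p = 0.577 from limma, exact permutation test, p = 0.2). When libraries were scaled to the epithelium markers it was -0.011. It was 0.41 with libraries scaled to equal summed FPKM and 0.31 with libraries centred on their medians.

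In every library Slc26a6 exceeded Slc26a3. The ratio of Slc26a3 to Slc26a6 was 0.285, 0.326 and 0.377 in KO mice and 0.318, 0.405 and 0.439 in WT mice. The values of the genotypes overlapped, with a difference in log2 ratio of -0.23 (exact two-sided permutation test, p = 0.3, adjusted p = 0.8). The ratio of Slc9a3 to Slc26a3 ran from 0.415 in K82S to 2.36 in K86S, both KO, and from 0.847 to 1.82 in WT (difference in log2 ratio -0.53, exact permutation p = 0.6, adjusted p = 0.9). That of Slc9a3 to Cftr ran from 0.956 to 6.29 in KO and from 1.89 to 3.83 in WT (difference -0.30, exact permutation p = 0.8, adjusted p = 0.9).

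Atp1b1, the beta subunit that the Na+/K+-ATPase needs to reach the basolateral membrane (ENSMUSG00000026576.12, chromosome 1, 164437109 to 164458355, minus strand), had 966, 628 and 1183 FPKM in KO mice. In WT mice it had 815, 701 and 1020.0 FPKM. The highest and the lowest value were both from KO libraries. Mean levels were 926 ± 279 FPKM (± SD, n = 3) for KO and 846 ± 162 FPKM for WT, and the log2 fold change was 0.10 with a 95% interval from -0.60 to 0.80 (adjusted p = 0.902 from limma). Without K82S it was 0.36 and without K86S -0.10. Nme7, on the opposite strand, overlaps Atp1b1 by 617 bp.

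**Figure D3:**
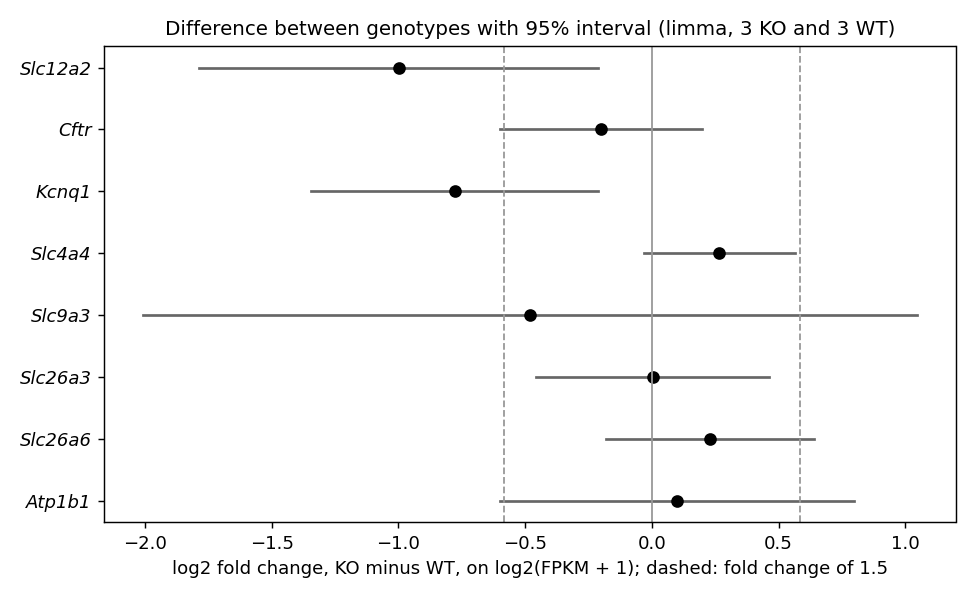
log2 fold change, KO minus WT, of the 8 transport genes on the log2(FPKM + 1) scale (points) with 95% intervals (lines) from limma with 3 KO and 3 WT libraries; dashed lines mark a fold change of 1.5. The intervals of Slc12a2 (-1.79 to -0.21) and Kcnq1 (-1.34 to -0.21) lie below 0, although neither passed after adjustment, and that of Slc9a3 is the widest.

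In FPKM, which is corrected for length, the order of the levels over all 6 libraries was Atp1b1 (mean 886 FPKM), Slc26a6 (41.7), Slc9a3 (19.6), Slc26a3 (14.8), Slc4a4 (12.9), Kcnq1 (7.70), Cftr (6.10) and Slc12a2 (5.30 FPKM). Atp1b1 stood apart from all others, with a lowest value of 628 FPKM. Every later pair of neighbours overlapped in range. Slc26a6 nevertheless exceeded Slc9a3, and Slc26a3 exceeded Slc4a4, in 6 of 6 libraries. Slc9a3 exceeded Slc26a3 in 3 of 6 libraries, and Cftr exceeded Slc12a2 in 4 of 6, so these neighbours did not differ beyond their spread. Slc4a4 exceeded Kcnq1 in 5 of 6 and Kcnq1 exceeded Cftr in 5 of 6 libraries. By group means the lower end ran Kcnq1 (9.93 FPKM), Slc12a2 (7.24) and Cftr (6.59) in WT. In KO it ran Cftr (5.61 FPKM), Kcnq1 (5.46) and Slc12a2 (3.36). Single libraries did not follow these orders by genotype. K79S, K82S and W90S all ran Kcnq1, Cftr and Slc12a2, and Cftr exceeded Kcnq1 only in K86S.

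Partner genes were taken from a list of 74 in 9 groups, of which 57 could be placed and 55 were tested. None was called, beside 0.00764% of all rows. Of the 55, 19 had a log2 fold change below 0 and 36 above, and the median was 0.12. Over all rows tested 57.7% were lower in KO, and the median was -0.061. The sign of this median depended on scaling. It was 0.082 with libraries scaled to equal summed FPKM and 0.021 with libraries centred on their medians. Summed FPKM was 393152 to 465901 in KO libraries and 473383 to 495362 in WT libraries. How the signs of the partner genes hold under another scaling of the libraries was not examined. KO values were all above the WT values for 4 of the 55 (among them Slc26a2, Slc9a2 and Aqp7; 5.9% of all rows) and below for 1 (Kcnn4; 11.3% of all rows). Slc26a2 and Slc9a2 are named because their values were seen, as their fold change was under 1.5.

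Among 8 apical partners tested, 7 had a log2 fold change above 0. Slc9a2 (NHE2), a second apical sodium-proton exchanger, had 42.1, 48.5 and 45.4 FPKM in KO mice and 33.3, 32.6 and 30.2 FPKM in WT mice, so it was above Slc9a3 in 5 of 6 libraries, all but W90S. Its log2 fold change was 0.49 (SE 0.14, adjusted p = 0.393 from limma). Slc26a2, a sulphate transporter of the same family as DRA and PAT1, had 20.4, 22.9 and 25.6 FPKM in KO against 17.6, 15.9 and 16.5 FPKM in WT (log2 fold change 0.44, adjusted p = 0.393 from limma). The most abundant partners of this group were Clca4a (565 to 923 FPKM) and the goblet cell product Clca1 (396 to 1394 FPKM), both with overlap between the genotypes.

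Of 6 basolateral partners tested, 3 lay on each side of 0. The anion exchanger Slc4a2 had 25.7 FPKM in W83S, against 10.7 to 14.0 FPKM in the other libraries. In W83S, the library with gastric transcripts, further partner genes were far above the rest: Car2, a cytosolic carbonic anhydrase, had 139.5 FPKM against 1.84 to 10.7 FPKM, and Fxyd3 14.8 FPKM against 1.19 to 2.36 FPKM.

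**Figure D4:**
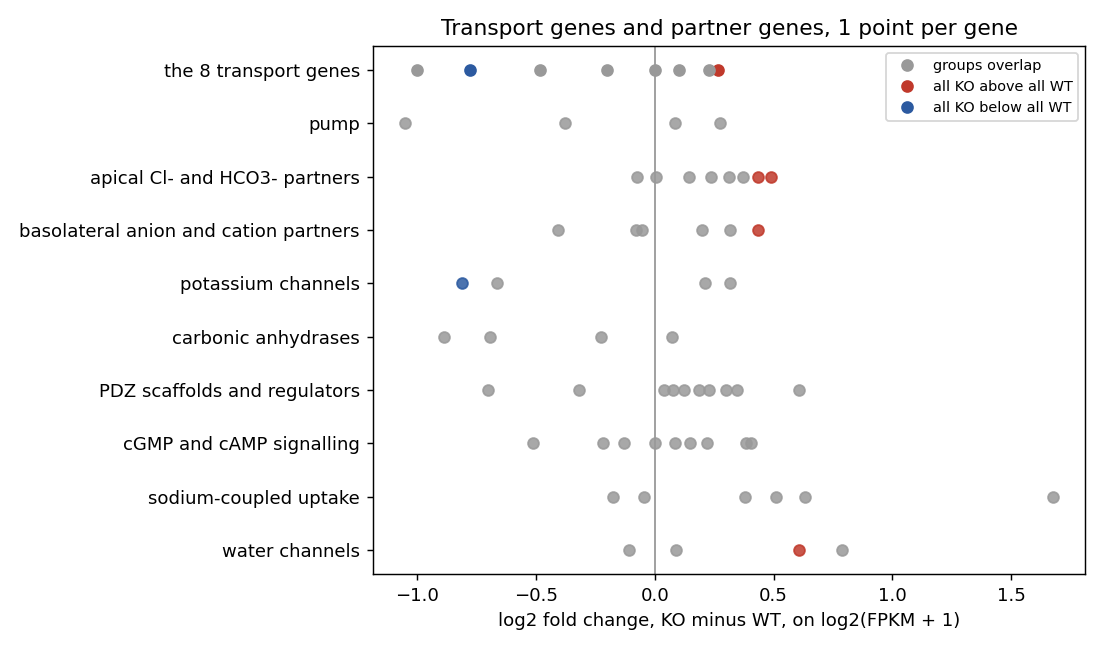
log2 fold change, KO minus WT, on the log2(FPKM + 1) scale (horizontal axis) for the 8 transport genes and for the tested partner genes in 9 groups (rows), 1 point per gene. Coloured points are genes whose KO and WT libraries do not overlap, 4 partner genes above WT and 1, Kcnn4, below.

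Scaffolds and signals that act on CFTR and NHE3 overlapped between the genotypes throughout. The scaffold Slc9a3r1 (NHERF1) had 1449 to 1995 FPKM in KO and 1149 to 1653 FPKM in WT, and ezrin (Ezr), which ties it to actin, 726 to 1028 FPKM in KO and 577 to 1035 FPKM in WT. Of the 10 genes of this group, 8 had a log2 fold change above 0 (median 0.15). The ligands of the guanylate cyclase C receptor, guanylin (Guca2a) and uroguanylin (Guca2b), had 404 to 1012 and 788 to 2033 FPKM in KO and 390 to 1880 and 1521 to 2241 FPKM in WT. Among carbonic anhydrases, Car4 had 54.8 to 109.6 FPKM in KO and 61.0 to 86.6 FPKM in WT, and Car13 19.7 to 32.7 FPKM in KO and 27.7 to 40.8 FPKM in WT. The potassium channel Kcnk5 had 42.3 to 64.7 FPKM in KO and 35.9 to 52.4 FPKM in WT, and the pump subunit Atp1b3 5.84 to 9.99 FPKM in KO and 8.39 to 12.1 FPKM in WT.

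Genes for the uptake of sugar and peptides also overlapped. The glucose transporter Slc5a1 (SGLT1) had 1102, 623 and 1506 FPKM in KO mice and 1130, 902 and 1468 FPKM in WT mice, and was lowest in K82S as Slc9a3 and Atp1b1 were. The peptide transporter Slc15a1 had 205 to 492 FPKM in KO and 236 to 282 FPKM in WT. Among water channels Aqp7 had 16.3, 10.6 and 18.4 FPKM in KO and 8.46, 9.94 and 9.66 FPKM in WT, without overlap (log2 fold change 0.61, SE 0.21, adjusted p = 0.393 from limma). Aqp1 had 262, 86.8 and 184 FPKM in KO and 85.3, 112 and 84.1 FPKM in WT, and Aqp3 13.0 to 46.2 FPKM in KO and 26.0 to 34.1 FPKM in WT. With all libraries the log2 fold change of Aqp1 was 0.79 (adjusted p = 0.429 from limma). Without K82S, the KO library lowest in both, Aqp1 (log2 fold change 1.23, adjusted p = 0.0374 from limma) and Aqp7 (0.83, adjusted p = 0.0328) were called, where 0.4% of all rows were called and higher in KO. Neither was called without K79S (0.44 and 0.54, adjusted p = 0.780 and 0.76 from limma). The same held without W83S (0.72 and 0.54, adjusted p = 0.664 and 0.546 from limma). Without both K82S and W83S, Slc12a2 (-1.22, adjusted p = 0.0344 from limma) and Kcnn4 (-1.01, adjusted p = 0.0357) were called, with 8.55% of all rows called and lower in KO. In that setting Aqp7 was called as well (0.76, adjusted p = 0.0494 from limma, with 0.336% of all rows called and higher in KO), while Aqp1 was not (1.17, adjusted p = 0.0740 from limma).

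The tested gene nearest in pattern to each transporter was found among named genes with a mean of at least 10 FPKM, by the root mean square difference over 6 libraries after centring on the log2(FPKM + 1) scale. It was Plp2 for Slc12a2 (difference 0.150, own spread 0.640), Hsd17b10 for Kcnq1 (0.119, own spread 0.474), Bcap31 for Cftr (0.0627, own spread 0.193) and Arhgef5 for Slc4a4 (0.0303, own spread 0.146). It was Ms4a18 for Slc26a3 (0.0505, own spread 0.195), Slc22a23 for Slc26a6 (0.0551, own spread 0.184) and H2-Q1 for Atp1b1 (0.0707, own spread 0.315). Each search compared 4535 or 4536 genes over only 6 libraries. Among the 8 themselves, Slc12a2 and Kcnq1 were each nearest to the other (0.290), as were Cftr and Slc26a3 (0.156) and Slc26a6 and Slc4a4 (0.190), although the last value is above the own spread of both (0.184 and 0.146).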

How the data were processed

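The authors removed adapters from 50 bp single-end reads (trim-galore), ran HISAT2 against mm10 and StringTie, and deposited 1 FPKM value per gene and library. Tool versions, annotation and strand handling are not given in the sources used here. No read counts were used, so the counting error is unknown and the precision rests on 3 mice per genotype. There were 0 unmapped columns.

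Identifiers in the table stand beside the rows of other genes. Each was moved to its row by rank: identifiers were ranked by the K79S value beside them, rows by W83S, and known offsets between the ranks were applied. Rows outside the settled ranges stayed unnamed. As a check, values with at most 6 decimals were matched to genes with a single GENCODE M21 transcript in windows of up to 301 identifiers around each transport gene. The match was 91.5% to 97.3% at the offset used and 49.8% to 62.1% at 8 others. Slc12a2 itself did not match, as its values have at most 6 decimals while M21 gives it 2 transcripts and a later version than the table.

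Rows with 1 FPKM in at least 2 libraries were kept. The limma package (3.58.1, R 4.3.3) was applied to log2(FPKM + 1) (variance trend, 6 libraries, no covariate, Benjamini-Hochberg adjustment over all rows), after a test on simulated data. The study's edgeR was not run, as FPKM are not counts. Exact permutation tests were two-sided. Further steps used Python 3.11.15, numpy 2.4.6 and pandas 2.3.3. Named were the 8 transport genes, the 2 most abundant genes of each partner group, non-overlapping partners past a fold change of 1.5, the nearest patterns and the 2 most abundant markers of a list where values bear on a result. Some partner genes and 1 of 6 ratios are not reported here, although they stay in the counts and in the adjustment. The transport genes, partner and marker lists were chosen with earlier results of these data known.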

Additional observations from a re-analysis of the deposited data

How the results depend on the processing

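Under 15 alternatives the log2 fold changes of Slc12a2, Kcnq1 and Cftr stayed below 0 and that of Slc4a4 above 0. The rows called in the whole table numbered 0 with pseudocounts of 0.1 and 0.01 (1636 and 1619 unadjusted p-values under 0.05), 2 with array weights, 0 to 1184 when 1 library was left out, with 1184 without K82S, and 1111 without K82S and W83S. Leaving out 1 library gave log2 fold changes of -1.36 to -0.77 for Slc12a2, -0.12 to 0.19 for Slc26a3, -1.14 to 0.049 for Slc9a3 and -0.10 to 0.36 for Atp1b1, and differences in log2 ratio of -0.98 to 0.38 for Slc9a3 to Cftr and -1.21 to 0.046 for Slc9a3 to Slc26a3. Without K82S and W83S the values were -1.22 for Slc12a2 (called), -0.12 for Slc26a3 and 0.13 for Slc9a3, and 0.54 and 0.27 for the same ratios. Scaled to the epithelium markers, which moved the median of all rows to -0.25, log2 fold changes were -0.23 for Slc26a3, -0.011 for Slc26a6 and -0.14 for Atp1b1. With equal summed FPKM, where that median was 0.082, they were 0.18, 0.41 and 0.29 in the same order. With array weights the value was -0.075 for Slc26a3, and the cause of these shifts was not tested. No paired analysis was possible because the labels carry no numbers that pair KO with WT mice, although the study calls them matched. Whether the libraries differ by technical or animal spread cannot be read from FPKM. The study lists mapped reads per library, fewest in K86S and next fewest in K79S, but the reads behind each value are unknown. K86S and K79S, the libraries lowest in Slc12a2, also had the most rows at 0 (2639 and 2041). The part of depth in the values was not tested.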

Other observations

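The summed markers of secretory cells overlapped between the genotypes. The sum of 6 Paneth cell markers, led by Defa24 and Defa30, was 681.5, 4764 and 1281 FPKM in KO mice against 2658, 9155 and 7051 FPKM in WT mice, with K79S and K86S lowest, as for Slc12a2. Goblet cell markers (6 genes, led by Tff3 and Zg16) summed to 6722 to 12450 FPKM in KO and 6942 to 13070 FPKM in WT. Of these 6, Muc2 (160, 126 and 77.3 against 68.3, 7.03 and 68.5 FPKM) and Fcgbp (894, 400.3 and 523 against 308, 397.1 and 291 FPKM) were higher in every KO mouse than in any WT mouse, as in 5.9% of all rows tested, and were named after their values were seen (log2 fold changes 1.79 and 0.80, adjusted p = 0.408 and 0.393 from limma). The other goblet cell genes overlapped, with log2 fold changes of 0.38 for Zg16, -0.25 for Tff3, -0.61 for Agr2 and -0.98 for Spink4. Enteroendocrine markers (5 of 6 genes placed) summed to 238 to 258 FPKM in KO and 235 to 306 FPKM in WT. Lymphocyte and plasma cell markers (6 of 8 placed, led by Jchain) summed to 78.4, 233.5 and 142 FPKM in KO and 93.0 to 97.7 FPKM in WT. Among the 6, the T cell genes Cd3e and Cd8a, also named after their values were seen, were higher in all KO mice than in all WT mice (5.9% of all rows tested), with 4.84, 6.11 and 4.44 against 2.71, 2.60 and 2.22 FPKM for Cd3e (log2 fold change 0.80, adjusted p = 0.393 from limma) and 7.04, 11.1 and 6.05 against 5.44, 3.84 and 3.87 FPKM for Cd8a (0.72, adjusted p = 0.393 from limma). The other 4 overlapped, with log2 fold changes of 0.62 for Jchain, 0.42 for Ptprc, -0.18 for Mzb1 and -0.26 for Cd79a.

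Markers of the distal small intestine (4 of 6 placed, led by Guca2a) summed to 432.5 to 1116 FPKM in KO and 417 to 1957 FPKM in WT, highest in W89S and K82S, the libraries lowest in Slc9a3. Colon markers (2 of 6 placed) summed to 15.0 to 30.1 FPKM and smooth muscle markers (3 of 6) to 10.7 to 33.6 FPKM. Pancreatic duct markers (4 of 5, led by Krt19, which intestinal epithelium also expresses) summed to 587 to 1416 FPKM. Each of these sums overlapped between the genotypes. Among the duct markers Spp1 had 63.2 FPKM in W83S, 0.379 and 0.419 FPKM in W89S and W90S, and 0.163 to 0.354 FPKM in KO. It was not tested, as it reached 1 FPKM in 1 library. The gastric transcripts of W83S were accompanied by Kcnj16, a potassium channel gene with 10.3 FPKM in W83S and at most 0.148 FPKM elsewhere, which was not tested because it reached 1 FPKM in 1 library.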
